A study of Mus musculus with 10 samples.

Results

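Lipid droplet and lipolysis genes were followed in mouse liver: the 3 CIDE genes Cidea, Cideb and Cidec, the perilipin genes Plin2, Plin3, Plin4 and Plin5, and the lipolysis genes Pnpla2, G0s2 and Pnpla3. These 10 genes were listed by name, as coat proteins and lipases of the droplet, and all 10 were found among the 24062 genes of the deposited expression table. The study fed mice a normal diet or a Western diet and treated them with carbon tetrachloride (CCl4), a toxin that injures hepatocytes, or with its oil vehicle. Livers were collected after 12 or 24 weeks. Each of the 8 combinations of diet, treatment and duration was 1 library made from a pool of 4 mice, so no combination had a second pool. Another 2 libraries were hepatocellular carcinomas, each from a single mouse on Western diet with CCl4 for 24 weeks. No genetic change, strain, sex or age of the mice was given in the sources used here.

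Hepatocytes store triglyceride in lipid droplets, which perilipins coat and CIDE proteins enlarge by fusing neighbouring droplets. Adipose triglyceride lipase, the product of Pnpla2, starts the breakdown of that triglyceride, and the small protein G0s2 blocks it. Cidea, Cidec and Plin4 are best known from fat tissue, and in liver the first pair is known to be induced in steatosis, whereas Cideb, Plin2, Plin3 and Plin5 belong to the resting hepatocyte.

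Poly-A RNA was sequenced, and the whole reads recovered from the deposited gene values summed to 23206229 to 30137802 per library. Values below are normalised read counts. Changes are log2 differences on the log2(value + 1) scale, which understates folds of low genes, given with the standard error of a limma fit and a Benjamini-Hochberg adjusted p over all 12648 genes tested. A gene was called at an adjusted p under 0.05. In that fit the pools of 12 and 24 weeks stood in as repeats of 1 combination, 2 pools against 2, so p-values measure the spread between pools and not between animals. All 12 hepatocyte markers were detected in each library, with summed levels of 100249 to 187317 in the pools. Macrophage markers summed to 262 and 374 in the pools of normal diet with oil, 538 and 629 in those of Western diet with oil, and 619 to 1210 with CCl4. In bulk tissue, fewer cells of a type and less RNA per cell cannot be told apart.

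Of the 10 genes, 7 rose with CCl4 on normal diet, against a background of 15.3% of all tested genes that rose and 10.6% that fell. With CCl4 on Western diet 5 rose, against 4.29% of tested genes that rose and 2.52% that fell. None of the 10 fell in either comparison. Cidea, 1 of the 7 on normal diet, was admitted to the test by its level in those CCl4 pools alone. The median change of the 10 was 0.85 on normal diet and 0.72 on Western diet, beside 0.00 and -0.02 over all tested genes. The Western diet given with oil moved none of the 10 past the threshold, where 1.99% of all tested genes were called. Of the 10, 3 had an unadjusted limma p under 0.05, beside 2219 of the 12648 tested genes. Neither edgeR nor DESeq2 called any of the 10. The plot of levels by library shows the CCl4 pools apart from the oil pools for Cidec, Plin3, Pnpla2 and Pnpla3, with Cideb nearly level. How many of all tested genes lie apart in this way was not counted.

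**Figure D1:**
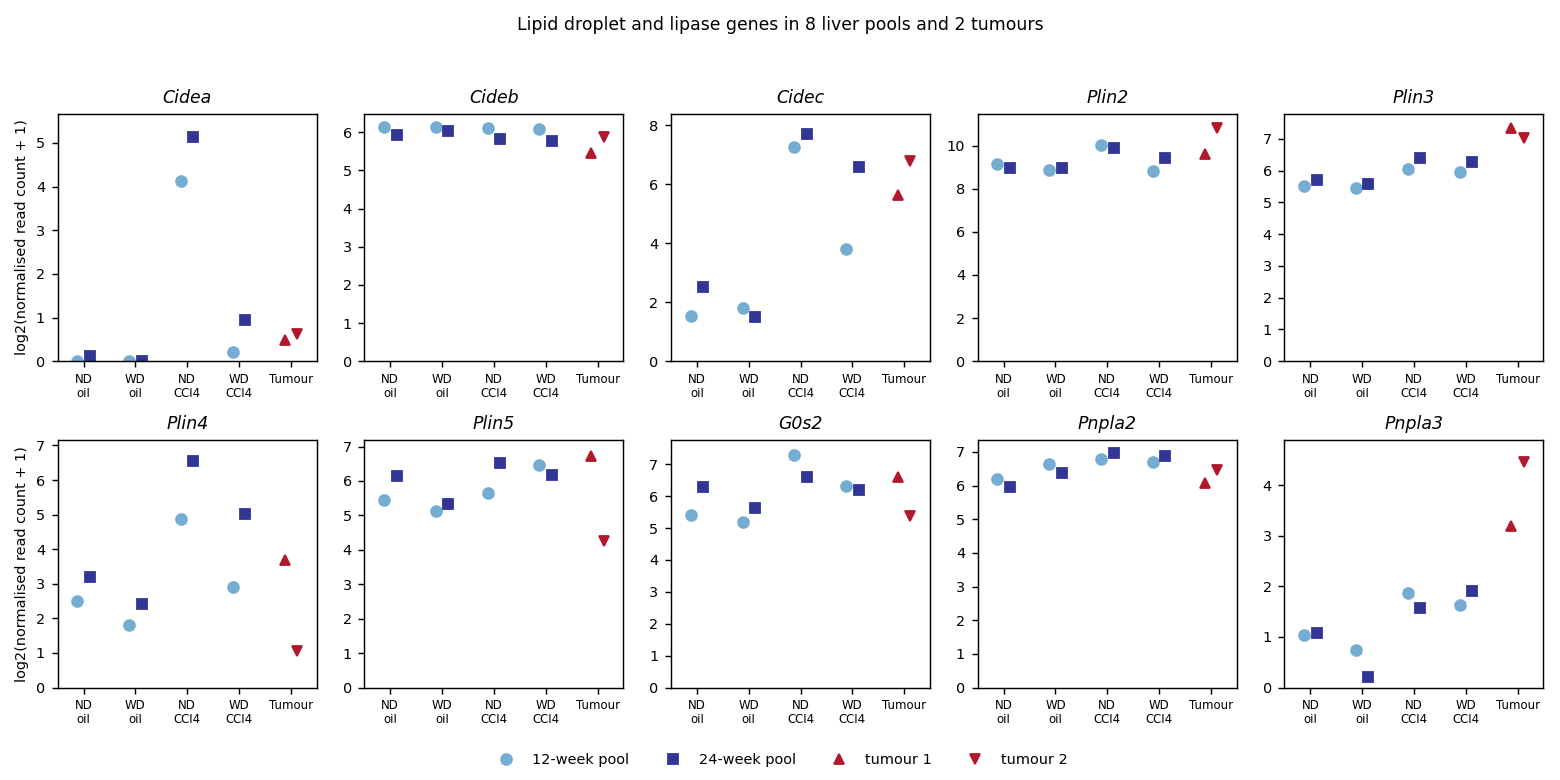
Level of each of the 10 genes, as log2(normalised read count + 1), in the 8 pools (circles 12 weeks, squares 24 weeks) and the 2 tumours (triangles), with diet and treatment along the horizontal axis and an axis of its own for each gene that starts at 0. Cidea stood at 16.4 and 34.4 normalised reads in the pools of normal diet with CCl4 and at or below 0.919 in the other 8 libraries.

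Cidec, Plin2 and Plin4 rose together with CCl4 on normal diet, and the stretch just upstream of their start sites is shown here so that the letters can be read beside their levels. Each run holds the 250 bases before a start site in RefSeq's annotation of GRCm38.p6, on the minus strand and read 5′ to 3′ along the gene. Cidec has a window for each of its 2 annotated starts. Capitals in the Plin2 run mark a match to a DR1, the paired element that PPAR and RXR receptors bind, searched as 2 copies of AGGTCA that lie 1 base apart, on both strands, with at most 2 letters off.
Cidec, chr6:113435761-113436010: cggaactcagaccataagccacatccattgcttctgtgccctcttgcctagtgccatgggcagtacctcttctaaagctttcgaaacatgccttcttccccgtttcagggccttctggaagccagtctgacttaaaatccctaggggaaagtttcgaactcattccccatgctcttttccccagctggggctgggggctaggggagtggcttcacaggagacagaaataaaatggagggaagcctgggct
Cidec, chr6:113434765-113435014: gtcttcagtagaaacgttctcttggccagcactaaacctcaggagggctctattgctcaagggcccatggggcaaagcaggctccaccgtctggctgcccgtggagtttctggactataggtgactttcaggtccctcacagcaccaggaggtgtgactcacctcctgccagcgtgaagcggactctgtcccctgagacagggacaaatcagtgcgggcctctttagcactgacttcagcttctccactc
Plin2, chr4:86670060-86670309: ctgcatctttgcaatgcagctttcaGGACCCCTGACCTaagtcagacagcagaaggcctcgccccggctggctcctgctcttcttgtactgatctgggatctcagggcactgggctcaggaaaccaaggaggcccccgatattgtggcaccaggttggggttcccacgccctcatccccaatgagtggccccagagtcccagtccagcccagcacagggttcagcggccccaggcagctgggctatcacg
Plin4, chr17:56109783-56110032: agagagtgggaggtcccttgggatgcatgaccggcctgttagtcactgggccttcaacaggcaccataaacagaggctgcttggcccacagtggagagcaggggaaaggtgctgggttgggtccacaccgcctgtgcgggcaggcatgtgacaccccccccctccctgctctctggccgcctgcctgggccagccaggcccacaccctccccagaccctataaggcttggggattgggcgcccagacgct
Counted from the start, the Plin2 match lies at -225 to -213, on the opposite strand, with 2 letters off, and it contains an exact AGGTCA copy on that strand. A DR1 match of this quality occurs in 3.86% of the 32817 windows of 300 bases in the same table, and an exact AGGTCA in 16.3%. Neither is found in the windows of Cidec and Plin4. Plin5 has an exact AGGTCA in each of 2 windows, at -170 to -165 in 1 of them and at 13 to 18 in the other. Such a match describes the letters and is not a mapped binding site. The table holds windows for 9 of the 10 genes, 11 windows in all.

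In the GENCODE annotation of GRCm38, Cidec lies at chr6:113424634-113435760, Cideb at chr14:55754050-55758458 and Plin2 at chr4:86648386-86670060. Plin4 (chr17:56100591-56109803) and Plin5 (chr17:56111601-56117596) are neighbours on the minus strand, 1797 bases apart, and Plin3 (chr17:56277476-56292873) lies on the same chromosome and strand. The lipolysis genes are Pnpla2 at chr7:141455198-141460743, G0s2 at chr1:193272161-193273217 and Pnpla3 at chr15:84167837-84187236. G0s2 lies entirely within the opposite-strand gene Lamb3, and Cideb shares 1451 bases with Nop9 on the opposite strand. Cidea shares 500 bases with the opposite-strand transcript B430212C06Rik and Plin4 shares 17 with Hdgfl2. Pnpla3 overlaps Gm49513 by 5323 bases and Mir6392 by 108 on its own strand, and the pseudogene Gm20369 by 307 on the other. Whether the counting used strand is not given in the sources used here, so reads of these overlapping genes cannot be told apart, and for Gm49513 strand would not separate them.

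Cidea, whose protein promotes droplet fusion and is abundant in brown fat, was nearly silent in liver except with CCl4 on normal diet. The pools of normal diet with CCl4 held 16.4 at 12 weeks and 34.4 at 24 weeks. Normal diet with oil had 0 and 0.0915, Western diet with oil 0 and 0, and Western diet with CCl4 0.154 and 0.919. The tumours had 0.391 and 0.543. In whole reads this was 1572 over the pools of normal diet with CCl4, 2 with oil on that diet, 36 with CCl4 on Western diet and 0 with oil on Western diet. No other library came near the pair on normal diet with CCl4.

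The change of Cidea with CCl4 on normal diet was 4.57 ± 0.28 (limma, adjusted p = 5.86e-05). Because 2 reads stand on the other side, the ratio of reads, each scaled to its libraries, is loose: 593-fold, with an exact 95% interval of 164 to 4903 that covers counting error only. On Western diet the limma change with CCl4 was 0.57 ± 0.28 and was not called (adjusted p = 0.249), whereas edgeR and DESeq2, run on the recovered reads, both called it higher. There the reads give a level at least 9.93-fold higher than with oil, taking 3 reads over the group as the floor for 0. Cidea passed the filter on low values solely through the pools of normal diet with CCl4, so a difference between these pools and the rest was built into its being tested.

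Between the 2 CCl4 groups, Cidea was lower on Western diet by -4.06 ± 0.28 on the log2 scale (limma, adjusted p = 0.00247), and lower at both durations. In reads, normal diet exceeded Western diet 45.2-fold (exact 95% interval 32.5 to 64.7), and by 107-fold at 12 weeks and 37.4-fold at 24 weeks. Of the 10 genes, Cidea was the 1 called between the diets under CCl4, where 6 of the 12648 tested genes, 0.0474%, were called. An unadjusted p under 0.05 was found for 5 of the 10, beside 889 of all tested genes. As Cidea was tested solely because of its level on normal diet with CCl4, the p and the call describe these pools and are no independent support. The call was kept whichever pool was left out and was lost without the filter on low values or with a minimum value of 10.

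The interaction is the CCl4 change on Western diet minus that on normal diet, and 13 tested genes, 0.103%, were called in it. For Cidea it was -4.00 ± 0.40 (limma, adjusted p = 0.00832). With 0 to 2 reads in each oil pool, both oil levels sit near 0 on the log2(value + 1) scale, so this value restates the -4.06 between the CCl4 groups and does not test a difference in fold. On recovered reads the interaction was -2.18 in edgeR (adjusted p = 0.942) and -3.28 in DESeq2 (adjusted p = 0.748). The limma call was also lost without the pool of Western diet with oil at 12 weeks (-3.68, adjusted p = 0.128), the same group at 24 weeks (-4.31, adjusted p = 0.0525) or normal diet with oil at 24 weeks (-3.77, adjusted p = 0.0548). In the interaction 4 of the other 9 genes had an unadjusted p under 0.05, beside 1131 of the 12648 tested genes. None of these 9 was called. The largest of these was Cidec at -1.91 ± 0.79 (adjusted p = 0.535), which was called at -3.11 without the 24-week pool of Western diet with CCl4 (adjusted p = 0.0208).

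Cidec, which localises to droplet contact sites and drives the exchange of lipid into the larger droplet, had the widest range of the genes detected in every pool, 111-fold between its lowest and highest pool. Normal diet with CCl4 had 154 at 12 weeks and 206 at 24 weeks. Western diet with CCl4 had 13.1 and 95.3, and the tumours 48.9 and 109. The oil pools had 1.91 and 4.76 on normal diet, and 2.52 and 1.85 where the diet was Western. All 4 CCl4 pools and both tumours thus lay above all 4 oil pools, and both pools of normal diet with CCl4 lay above both of Western diet with CCl4.

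On normal diet CCl4 raised Cidec by 5.45 ± 0.56 (limma, adjusted p = 0.000511). This was the largest rise of the 12648 tested genes on the log2(value + 1) scale, which understates folds of low genes. In scaled reads Cidea rose more, 593-fold. No left-out pool ended the call of Cidec. On Western diet its rise was 3.54 ± 0.56 (adjusted p = 0.0113), with 3 tested genes above it on the log2(value + 1) scale. That call was lost without the 24-week pool of Western diet with oil (2.69, adjusted p = 0.209). On Western diet the ratio to the oil pool was 5.21 at 12 weeks and 51.4 at 24 weeks, beside 80.8 and 43.3 on normal diet. The difference between the diets under CCl4, -2.28 ± 0.56, did not pass (adjusted p = 0.405), but was called at -3.48 without the 24-week pool of Western diet with CCl4 (adjusted p = 0.00229).

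Cideb, the CIDE protein of hepatocytes, known for its part in loading lipid onto very low density lipoprotein, was steady. Its pools ran from 53.5 to 69.7 and the tumours had 42.9 and 57.3. The change with CCl4 was -0.08 ± 0.11 on normal diet and -0.17 ± 0.11 on Western diet (limma, adjusted p = 0.643 and 0.381). In the 4 combinations of diet and treatment, the ratio of 24 to 12 weeks was 0.809 to 0.933.

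Per kilobase of exon, the scale on which genes can be set beside each other, Cideb made up 93.8% to 97.9% of the summed CIDE signal in the oil pools. With CCl4 on normal diet Cidec took 57.9% at 12 weeks and 61.9% at 24 weeks, Cidea 10.3% and 17.2%, and Cideb the remaining 31.8% and 20.8%. On Western diet with CCl4 Cidec took 13.7% at 12 weeks and 58.3% at 24 weeks, with Cidea at 0.267% and 0.935%. The summed level was 42.9 to 48.0 normalised reads per kilobase in the oil pools and 143 and 179 on normal diet with CCl4. The make-up of the CIDE family thus went from nearly all Cideb to mostly Cidec in 3 of the 4 CCl4 pools.

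**Figure D2:**
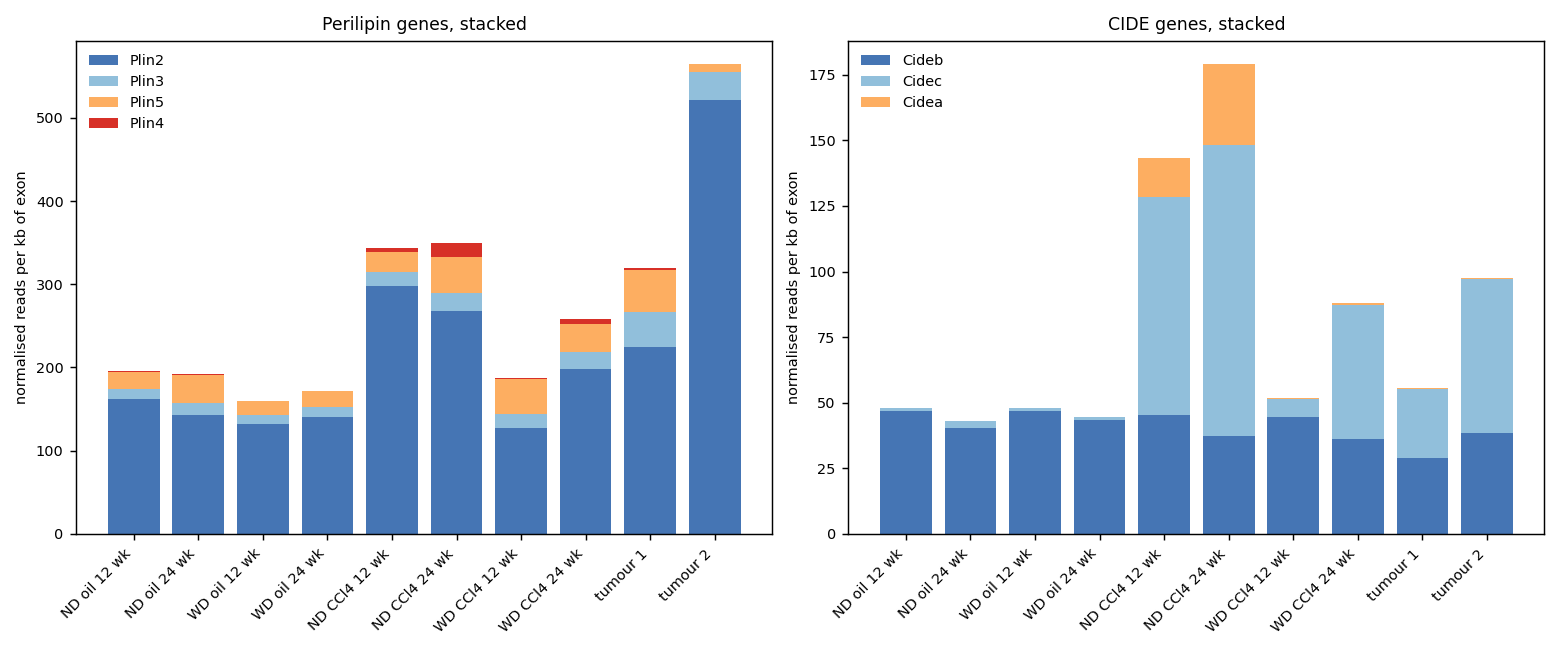
Stacked normalised reads per kilobase of exon for the perilipin genes (left) and the CIDE genes (right) in each of the 10 libraries. Plin2 fills most of every perilipin bar, and Cidec is the largest part of the CIDE bar in both pools of normal diet with CCl4, in Western diet with CCl4 at 24 weeks and in tumour 2.

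Markers of adipocytes were read beside these fat-tissue genes. Lep and Ucp1 were 0 in all 10 libraries, Adipoq and Plin1 did not exceed 0.0796 in any, and 5 of the 12 markers stayed below 1 throughout. Of the 7 that could be tested, 4 rose with CCl4 on normal diet: Cfd, Aqp7, Fabp4 and Slc2a4. Adrb3 fell, by -1.02 ± 0.26 (limma, adjusted p = 0.0219). The median change of the 7 was 1.35, beside 0.00 over all tested genes. Cfd, the adipocyte protease adipsin, stood at 45.6 in the 12-week pool of normal diet with CCl4, at 5.40 in the 24-week pool and at no more than 0.661 elsewhere. Like Cidea, Cfd thus passed the filter on low values solely through these pools, so its rise was built into its being tested. Cidea had its higher value in the 24-week pool, where Cfd was lower. Macrophage markers moved with the same exposure, 9 of 10 rising, as did 7 of 10 stellate cell markers, while 4 of 12 hepatocyte markers fell, beside the 15.3% of all tested genes that rose and 10.6% that fell. Their median changes were 1.33, 0.83 and -0.69. The part of adipocytes or of any of these other cell types in the changes of the droplet genes was not tested.

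Plin2, the coat protein that is stabilised by stored lipid in hepatocytes, was the most abundant of the 10 genes per kilobase in all libraries. Normal diet with CCl4 had 1047 and 941 at 12 and 24 weeks, against 570.5 and 504 with oil. Western diet with CCl4 had 449 and 696, against 463 and 493 with oil. Both pools of normal diet with CCl4 lay above the other 6 pools, and those of Western diet with CCl4 overlapped the oil pools. The rise with CCl4 on normal diet was 0.89 ± 0.20 (limma, adjusted p = 0.0126) and was lost without the pool of normal diet with CCl4 at 12 weeks (adjusted p = 0.101) or with oil at 24 weeks (adjusted p = 0.125). On Western diet the change was 0.23 ± 0.20 (adjusted p = 0.516). The lower level on Western diet under CCl4, -0.83 ± 0.20, was not called by limma (adjusted p = 0.353), was called by DESeq2, and was called at -1.18 without the 24-week pool of Western diet with CCl4 (adjusted p = 0.011).

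Plin4, a perilipin with a long amphipathic helix that coats droplets of fat and muscle cells, had low levels that rose with CCl4 on both diets. Its pools of normal diet with CCl4 had 28.2 and 92.5 and those of Western diet with CCl4 6.49 and 31.5. Normal diet with oil had 4.70 and 8.14, and Western diet with oil 2.52 and 4.37. Within each diet and duration the CCl4 pool was the higher one, although the 12-week value of Western diet with CCl4 fell below the 24-week value of normal diet with oil. The rise was 2.86 ± 0.34 on normal diet (limma, adjusted p = 0.000915) and 1.84 ± 0.34 on Western diet (adjusted p = 0.0199). The first call was kept whichever pool was left out. The second was lost without either oil pool of Western diet (adjusted p = 0.0583 and 0.303) or its 24-week CCl4 pool (adjusted p = 0.0811). Between the diets under CCl4, Plin4 was -1.75 ± 0.34 on Western diet, uncalled by limma (adjusted p = 0.18) and called by DESeq2. The difference was -2.31 and called without the 24-week pool of Western diet with CCl4 (adjusted p = 0.0132).

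Plin3, a perilipin that moves from the cytosol onto young droplets, rose by a like amount on both diets. With CCl4 it had 64.8 and 82.6 on normal diet while the Western diet pools had 60.8 and 76.9, against 43.3 to 51.1 in the 4 oil pools, with no overlap. The rise was 0.60 ± 0.12 on normal diet (limma, adjusted p = 0.00747) and 0.59 ± 0.12 on Western diet (adjusted p = 0.024), and the test of the difference gave -0.01 ± 0.16. The call on normal diet was lost without the 24-week pool with oil (adjusted p = 0.0587) or with CCl4 (adjusted p = 0.0775). On Western diet it was lost without the oil pool of 12 weeks (adjusted p = 0.115) or 24 weeks (adjusted p = 0.359), or without the 24-week CCl4 pool (adjusted p = 0.122).

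Plin5, which tethers droplets to mitochondria in cells that burn fat, rose with CCl4 on Western diet by 1.10 ± 0.24 (limma, adjusted p = 0.0334). Western diet with CCl4 had 88.1 and 71.2 against 33.9 and 39.1 with oil, with no overlap. On normal diet the CCl4 pools had 48.8 and 90.5 against 43.0 and 70.0, which overlap, a change of 0.27 ± 0.24 (adjusted p = 0.435). The difference between the diets, 0.83 ± 0.34, did not pass (adjusted p = 0.535), so a rise on Western diet alone is not shown. The call on Western diet was lost without either of its oil pools or its 12-week CCl4 pool (adjusted p = 0.0932 to 0.381).

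Set beside each other per kilobase, Plin2 made up 68.3% to 86.8% of the summed perilipin signal in the pools. Plin5 was second in each pool, at 6.81% to 22.6%, and Plin4 took 0.273% to 4.58%. The pool with the highest share of Plin5, 22.6%, was Western diet with CCl4 at 12 weeks, which also had the lowest share of Plin2. Plin1, the perilipin of white fat, was at 0 in 7 of the 10 libraries.

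**Figure D3:**
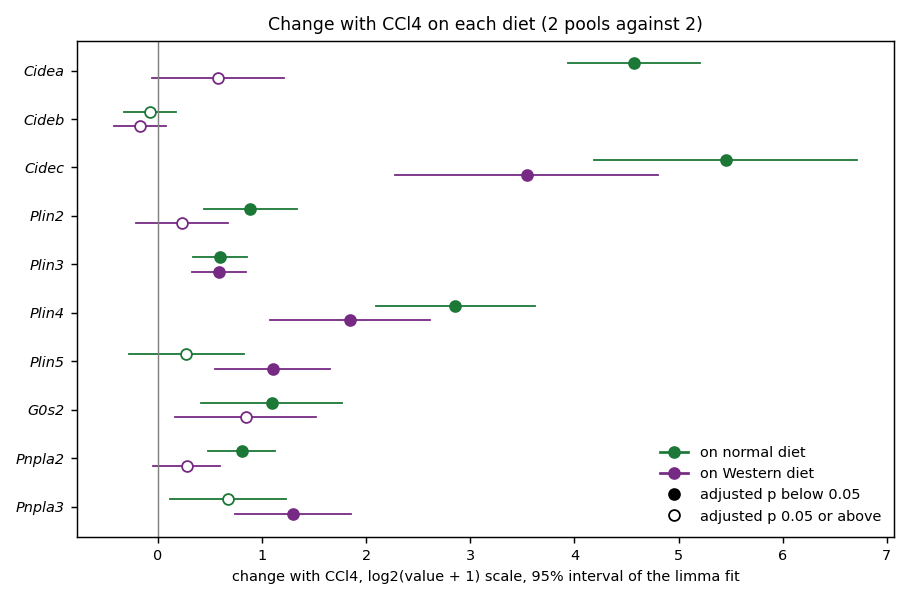
Change with CCl4 in log2(value + 1), with the 95% interval of the limma fit, for each gene on normal diet (green) and on Western diet (purple), 2 pools against 2. Filled points were called at an adjusted p under 0.05: on normal diet Cidea, Cidec, Plin2, Plin3, Plin4, G0s2 and Pnpla2, and on Western diet Cidec, Plin3, Plin4, Plin5 and Pnpla3.

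Pnpla2, the lipase that takes the first fatty acid from stored triglyceride, rose with CCl4 on normal diet from 72.1 and 60.7 to 109 and 123, without overlap. That change was 0.80 ± 0.14 (limma, adjusted p = 0.00492), lost without the 24-week pool with oil (adjusted p = 0.0546) or with CCl4 (adjusted p = 0.0598). On Western diet the values were 98.0 and 82.7 with oil and 103 and 115 with CCl4, a change of 0.28 ± 0.14 (adjusted p = 0.268). The oil pools on Western diet lay above those on normal diet by 0.44 ± 0.14 (unadjusted p = 0.0128, adjusted p = 0.165).

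G0s2, the inhibitor of that lipase, went the same way as its target on normal diet: 156 and 96.4 with CCl4 against 41.7 and 77.3 with oil. The groups did not overlap, and the rise was 1.09 ± 0.30 (limma, adjusted p = 0.0286). The call was not made by DESeq2 and was lost without either 12-week pool of that diet (adjusted p = 0.178 and 0.201) or either oil pool of Western diet (adjusted p = 0.0549 for both). Western diet with CCl4 had 79.3 and 72.1 against 35.7 and 48.7 with oil, also without overlap, but this change of 0.84 ± 0.30 did not pass (adjusted p = 0.127). Per kilobase, G0s2 exceeded Pnpla2 in every library, by 1.26-fold to 4.93-fold in the pools. That ratio was 2.01 and 4.41 in the pools of normal diet with oil and 4.93 and 2.71 in those with CCl4, so it did not separate the treatments.

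Pnpla3, a droplet hydrolase whose human counterpart carries a well-known risk variant for fatty liver, was the lowest of the 10 per kilobase on average. Western diet with CCl4 had 2.11 and 2.76 against 0.684 and 0.148 with oil, and normal diet with CCl4 had 2.67 and 1.99 against 1.06 and 1.10. The rise was 1.30 ± 0.25 on Western diet (limma, adjusted p = 0.0224), and the change on normal diet was 0.67 ± 0.25 (adjusted p = 0.0761). These values rest on 4 to 96 reads per pool. The call on Western diet was lost without either oil pool (adjusted p = 0.0708 and 0.315) or the 24-week CCl4 pool (adjusted p = 0.112).

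Western diet plus CCl4 was also set against normal diet with oil, the joint exposure against neither. It shares its pools with the comparisons above. Cidec rose by 3.17 ± 0.56 (limma, adjusted p = 0.00451), Plin4 by 1.11 ± 0.34 (adjusted p = 0.0408), Pnpla2 by 0.71 ± 0.14 (adjusted p = 0.00741) and Plin3 by 0.50 ± 0.12 (adjusted p = 0.0142). These 4 of 10 stand beside 15.7% of tested genes that rose and 10.2% that fell. Under 10 alternative settings that left out no library, Plin4 kept its call in 4, Plin3 in 8, and Cidec and Pnpla2 in 9 each. The rises of Plin3, Plin4 and Pnpla2 were lost without the 24-week pool of normal diet with oil (adjusted p = 0.0892, 0.311 and 0.0731) or of Western diet with CCl4 (adjusted p = 0.0978, 0.313 and 0.0544). Plin5 was called higher without the second of these pools (0.97, adjusted p = 0.0146), and Pnpla3 without the 12-week pool of Western diet with CCl4 (0.99, adjusted p = 0.0363). Cidea was at 0.51 ± 0.28 (adjusted p = 0.207) in limma and was called higher on recovered reads, by 3.44 in edgeR (adjusted p = 0.0178) and 3.54 in DESeq2 (adjusted p = 0.0097), and at 1.88 with a pseudocount of 0.1 (adjusted p = 0.043). Its ratio of scaled reads was 13.1 (exact 95% interval 3.38 to 113), on 36 reads against 2. Plin2 was at 0.06 ± 0.20 (adjusted p = 0.845) and G0s2 at 0.41 ± 0.30 (adjusted p = 0.339).

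The 24-week pools were compared with the 12-week pools over all 4 combinations. Limma called none of the 10 genes, nor any other (0%). Of the 10, 5 had an unadjusted limma p under 0.05, beside 1475 of the 12648 tested genes. Among the 10, edgeR called 0 and DESeq2 called Cidea and Plin4 higher. Plin4 was higher at 24 weeks in all 4 combinations, by 1.73-fold and 1.74-fold with oil on normal and Western diet and by 3.28-fold and 4.85-fold with CCl4, a change of 1.27 ± 0.24 (limma, adjusted p = 0.334). Cidec was 7.26-fold higher at 24 weeks on Western diet with CCl4 and 1.34-fold on normal diet with CCl4. Within the CCl4 pools alone, a fit chosen after seeing the data, limma called none of the 10 either. In that fit 6 had an unadjusted limma p under 0.05, with no count over all tested genes to set beside them. With 1 pool for each combination and duration, none of these ratios has a spread of its own.

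Both tumours had Cidec above the oil pools and the highest Plin3 and Pnpla3 of the 10 libraries. Plin3 was 160 and 130, against at most 82.6 in a pool. Pnpla3 was 8.21 and 20.9, against at most 2.76. Against the unexposed pools of normal diet with oil, Plin3 rose by 1.45 ± 0.17 (limma, adjusted p = 0.00387), Pnpla3 by 2.84 ± 0.43 (adjusted p = 0.00884) and Cidec by 3.69 ± 0.71 (adjusted p = 0.0204), 3 of 10 beside 6.06% of tested genes that rose and 4.59% that fell. Without the 24-week pool of normal diet with oil all of these calls were lost (adjusted p = 0.116, 0.152 and 0.268), and without the 12-week pool those of Cidec and Pnpla3 (adjusted p = 0.0854 and 0.0529).

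Against liver pools with the same exposure, Western diet with CCl4, limma called none of the 10 genes in the tumours, where 0.972% of tested genes were called. Of the 10, 5 had an unadjusted limma p under 0.05, beside 2114 of the 12648 tested genes. Among the 10, edgeR called 0 and DESeq2 called Plin3 and Pnpla3 higher. The limma change was 0.95 ± 0.17 for Plin3 (adjusted p = 0.0528) and 2.12 ± 0.43 for Pnpla3 (adjusted p = 0.0684). Both were called with either tumour left out, Plin3 at 0.80 and 1.10 (adjusted p = 0.00633 and 0.00251) and Pnpla3 at 2.75 and 1.50 (adjusted p = 0.000602 and 0.0136). A lone tumour is then assumed to vary like the pools.

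The perilipins other than Plin3 differed widely between the tumours. Tumour 2 had 1830 of Plin2 and tumour 1 had 789. Plin4 was 1.09 in tumour 2, below every pool, and 11.8 in tumour 1. Plin5 was 18.1 in tumour 2, again below every pool, and 105 in tumour 1, above every pool. The perilipin signal per kilobase of tumour 2 was 92.3% Plin2 and 1.54% Plin5, that of tumour 1 70.3% and 15.8%. Without tumour 1, the limma change against the exposed pools was 1.66 for Plin2, -3.54 for Plin4 and -2.25 for Plin5. Without tumour 2, Pnpla2 was at -0.69 against those pools. Against unexposed liver, Plin2, Plin4 and Plin5 were at 1.72, -2.43 and -1.73 without tumour 1. Cideb was at -0.47 against unexposed liver without tumour 2. A lone tumour has no spread of its own, so only the sizes of these changes are given. Hepatocyte markers summed to 338625 in tumour 2 and 115045 in tumour 1, and the part of that gap in these differences was not tested.

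Other genes of the same processes were read from lists. Counts for CCl4 on normal diet stand beside the 15.3% of all tested genes that rose and 10.6% that fell, and beside a median of 0.00 over all of them. Among 16 other lipases and cofactors, 5 rose and 3 fell with CCl4 on normal diet, with a median change of -0.04. Lpl, the lipase of circulating triglyceride, rose by 1.91 ± 0.23 (limma, adjusted p = 0.000924), Mgll, which splits the last glyceride bond, by 1.20 ± 0.11 (adjusted p = 0.000325) and Hilpda, a small inhibitor of the Pnpla2 lipase, by 1.16 ± 0.18 (adjusted p = 0.00305). The liver carboxylesterase Ces1d fell by 0.85 ± 0.15 (adjusted p = 0.00444). Abhd5, the activator of the Pnpla2 lipase, ran from 29.9 to 45.1 in the pools and was not called. On Western diet with CCl4, Lpl rose by 1.38 and Mgll by 0.76, and Ces1f fell by 0.72 (adjusted p = 0.0132, 0.00941 and 0.013). In the tumours Mgll was lower than in exposed liver by -1.33 ± 0.22 (adjusted p = 0.0476), at 125 and 83.1 against 271 and 261.

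Among 12 genes of droplet formation, Mogat1, which makes diglyceride, and Fitm2, which helps droplets bud, rose with CCl4 on normal diet by 2.09 ± 0.27 and 1.08 ± 0.15 (limma, adjusted p = 0.00138 and 0.00162), while Acsl3 and Rab18 fell. The median of the 12 was 0.08. Mogat1 also rose on Western diet, by 1.41 ± 0.27 (adjusted p = 0.0235). Fitm1, the relative of Fitm2 best known from muscle, was the one gene of the 4 pathway lists called with Western diet and oil. With oil it had 28.6 and 51.0 on normal diet, but 2.69 and 1.33 on Western diet, a log2 change of -3.74 ± 0.40 (adjusted p = 0.00435). Dgat1 and Dgat2, which make triglyceride, were not called in any comparison.

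Among 17 tested droplet surface proteins, 4 rose and 5 fell with CCl4 on normal diet (15.3% and 10.6% of all tested genes), with a median change of -0.05. The largest falls were of Sqle and Lss, enzymes of cholesterol synthesis that sit on droplets, at -4.12 ± 0.15 and -1.71 ± 0.13 (limma, adjusted p = 6.47e-06 and 0.000148). Sqle had 142 and 151 with oil and 8.11 and 6.86 with CCl4 on normal diet, beside 21.4 and 21.3 with CCl4 on Western diet. It was the other gene of these lists, with Cidea, called between the diets under CCl4, and in the opposite direction: 1.40 ± 0.15 higher on Western diet (adjusted p = 0.023). Lpcat2 and Lpcat1, which make phosphatidylcholine for the droplet surface, rose by 1.28 ± 0.19 and 0.90 ± 0.26 (adjusted p = 0.00217 and 0.0331).

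Of 14 transcription factors that act on droplet genes, 4 rose and 1 fell with CCl4 on normal diet (15.3% and 10.6% of all tested genes), with a median change of -0.01. Pparg, which drives fat-cell genes including Cidea and Cidec, had 30.3 and 25.1 against 11.0 and 11.3 with oil, a rise of 1.23 ± 0.25 (limma, adjusted p = 0.00944). Ppara, the fatty acid sensor of hepatocytes, rose by 1.02 ± 0.13 and Srebf1, which drives fatty acid synthesis, by 1.04 ± 0.14 (adjusted p = 0.00107 and 0.00146), while Ppard fell by 1.09 ± 0.14 (adjusted p = 0.00135). On Western diet Pparg rose from 5.77 and 6.75 to 12.3 and 24.6, by 1.35 ± 0.25 (adjusted p = 0.0209). Pparg thus rose on both diets. Under CCl4 its values were lower on Western diet at both durations, a difference that limma did not call.

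**Figure D4:**
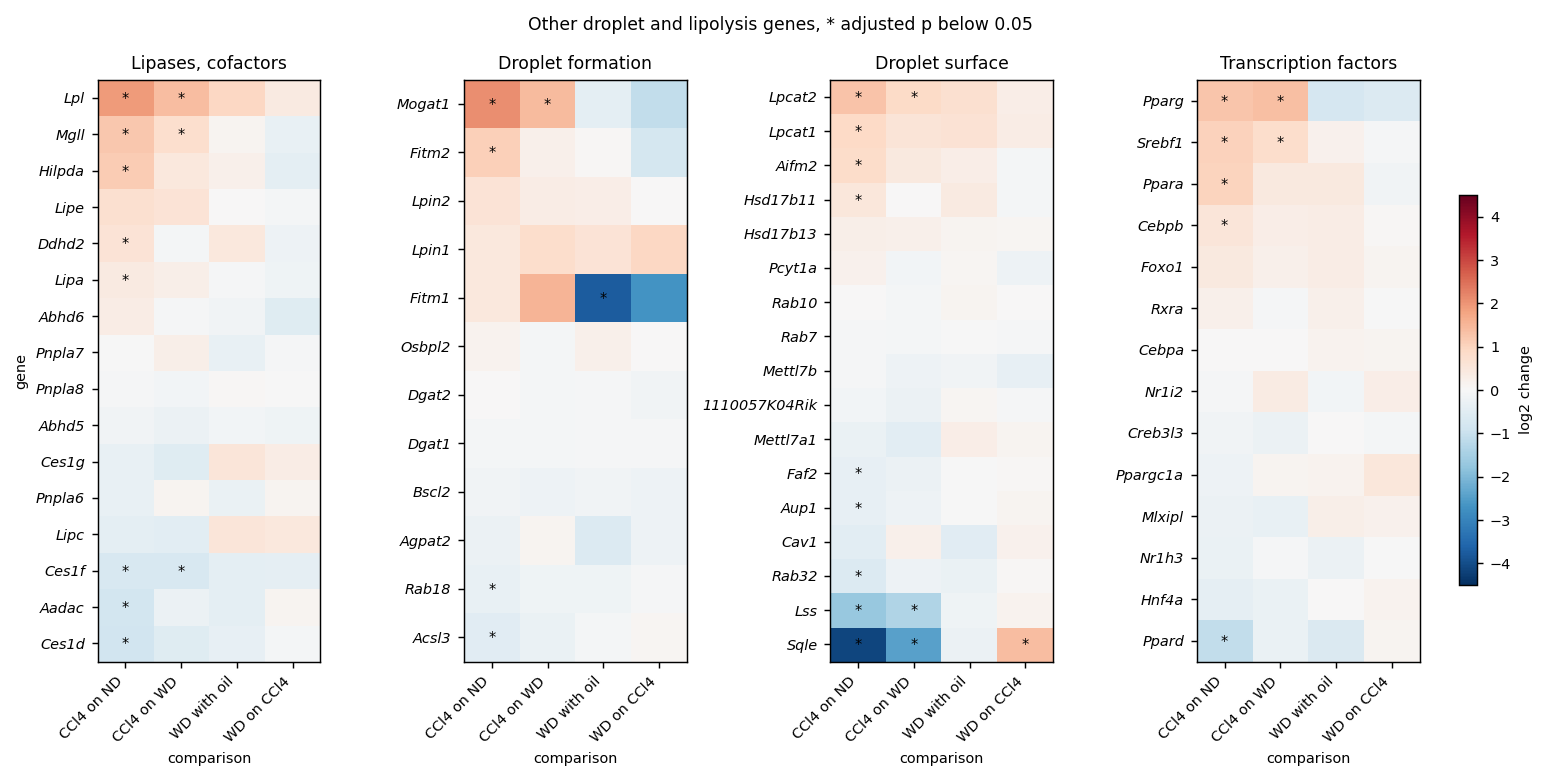
Log2 change (colour, red higher and blue lower) of the other lipases and cofactors, droplet formation genes, droplet surface proteins and transcription factors in 4 liver comparisons, ordered by the change with CCl4 on normal diet, where ND is normal diet and WD is Western diet. Asterisks mark an adjusted p below 0.05, and the single asterisk in the column of Western diet with oil is Fitm1.

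For each of the 10 genes, the better-expressed genes outside the 10 with the most similar profile over the 10 libraries were found by the root mean square difference of centred log2 values. The nearest to Plin2 were Atp9a at 0.22, Myo1d at 0.25 and Pik3ap1 at 0.26, and the nearest to Pnpla2 were Tnfrsf1b at 0.09, Kif16b at 0.11 and Siae at 0.11. Plin4 had Aldh3a2 at 0.88, Saa2 at 0.97 and Pex11a at 1.01. Cidec had Osbpl3 at 1.05, Anxa2 at 1.11 and Apoa4 at 1.14. Outside the 10 genes, the closest to Cidea were Slc13a3 and Scd1 at 1.17 each and Slc16a5 at 1.30. Plin4 was nearer, at 1.08, where the spread of Cidea itself is 1.77 on that scale. Pnpla3 had Apoc2 at 0.39, Serpina12 at 0.48 and Tbc1d31 at 0.49. All 3 had their highest values in the tumours, as did Pnpla3. Plin5 was nearest to Mgst3 at 0.28, G0s2 to S100a10 at 0.28, Plin3 to Itm2c at 0.16 and Cideb to Ece1 at 0.07. These distances are not scaled to how much each gene varies. The spread was 0.20 for Cideb and 0.33 for Pnpla2, beside 2.41 for Cidec.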

How the data were processed

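Frozen liver and tumour RNA was poly-A selected and made into libraries with an Illumina TruSeq kit, per the labels' protocols. Alignment named STAR and the build mm10, per the submitters' processing notes. The counter, annotation, strand setting and scaling were not named in the sources used here. The authors deposited a normalised signal per gene. Dividing it by 1 constant per library gave whole reads for 100% of values, to a tolerance of 0.01 reads, and these reads were used in count models. The product of the implied scaling factors was 1.0.

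Values were taken as log2(value + 1). Genes at or above 1 in at least 2 of 10 libraries (12648) were fitted in limma 3.58.1 (R 4.3.3, eBayes with trend) with 1 mean per diet and treatment and a duration term. The liver fit of 8 pools had 3 residual degrees of freedom and the tumour fit of 10 libraries had 4. edgeR 4.0.16 and DESeq2 1.42.0 on recovered reads, other pseudocounts, filters and scalings, and leaving out each library were alternatives. Duration within CCl4 pools was an alternative chosen after seeing the data. Intervals and floors (3 reads for a value of 0) cover counting error only. The 10 genes and all lists were chosen with earlier results of these data known. All 10 genes are named. Up to 4 called genes per list and comparison with the largest change could be named, and the 3 nearest profiles per gene. Of 105 list entries, 2 matched by an older symbol and 1 did not match.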

Additional observations from a re-analysis of the deposited data

Results flagged for a closer look

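The limma interaction term for Cidea, the CCl4 change on Western diet minus that on normal diet, was -4.00 ± 0.40 on the log2 scale, with an adjusted p of 0.00832. The changes were 4.57 on normal diet and 0.57 on Western diet. Oil pools hold 0 to 2 reads of Cidea, and it was tested solely because of its level on normal diet with CCl4, so the term restates the gap between the CCl4 groups, -4.06, and is no independent test of a difference between diets. The call was lost with a pseudocount of 0.1, without a filter, with a minimum value of 10, with the tumours in the fit, and in edgeR (-2.18, adjusted p = 0.942) and DESeq2 (-3.28, adjusted p = 0.748) on reads.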

How the results depend on the processing

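Of the 21 called results of the 10 genes, 2 were kept under every setting and left-out library, the rises of Cidea and Cidec with CCl4 on normal diet, and 5 whichever library was left out. Cidea passed the filter of the main fit solely through the pools of normal diet with CCl4, so its kept calls are no independent support. Of the 69 uncalled, 48 stayed so throughout. No called result changed sign. The count of the 10 genes called moved as follows. The count over all tested genes is not set beside it, so a move may not be particular to the 10. For CCl4 on normal diet (7) it was 2 with all 10 libraries in the fit and 4 to 7 with a library left out. For CCl4 on Western diet (5) it was 0 without a filter, 3 without a trend, 2 without the duration term, 0 with all 10 libraries and 0 to 5 with a library left out. For the joint exposure (4) it was 2 without a filter, 2 without the duration term, 1 with all 10 libraries and 1 to 5 with a library left out. For Western diet on CCl4 (1) it was 0 without a filter, 0 with a minimum value of 10, 3 in DESeq2 and 1 to 4 with a library left out. For the interaction (1) it was 0 with a pseudocount of 0.1, 0 without a filter, 0 with a minimum of 10, 0 with all 10 libraries, 0 in edgeR, 0 in DESeq2 and 0 to 2 with a library left out. For duration (0) it was 2 in DESeq2. For tumours against exposed liver (0) it was 1 with a minimum of 10, 2 without the duration term, 2 in DESeq2 and 0 to 5 with a library left out. For tumours against unexposed liver (3) it was 0 with the other set of samples in the fit and 0 to 6 with a library left out. The highest counts for the tumours come from fits without tumour 1, where a lone tumour is assumed to vary like the pools. The causes of these moves were not tested. Scaling by library totals alone moved the median of all genes by 0.22 for CCl4 on normal diet, 0.18 on Western diet, 0.25 for the joint exposure and -0.20 for tumours against exposed liver. Pools of the same duration were already matched by the duration term, and the fits without it are given above.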
